A study of Mus musculus with 19 samples.

Results

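The 38 genes described here are all protein-coding mouse genes of 5 families of membrane amino acid carriers, selected by symbol alone (Slc1a1 to Slc1a7, Slc3a1 and Slc3a2, and every member of the Slc7a, Slc38a and Slc43a series), out of 51707 genes summed from the deposited transcripts. They were followed in 19 RNA-seq libraries of cells sorted from pancreatic ductal adenocarcinomas that grew in C57BL/6J mice after T-LOH KPC organoids had been placed into the pancreas. KPC names a model of pancreatic cancer, and the labels do not spell out T-LOH. All mice were treated for 2 weeks, with neratinib, an irreversible inhibitor of the ERBB receptor tyrosine kinases, or with vehicle. Cells carrying podoplanin (PDPN+), which the labels call CAFs (cancer-associated fibroblasts), gave 4 neratinib and 4 vehicle libraries, and cells carrying the epithelial adhesion molecule EpCAM (EpCAM+), which the labels call epithelial, gave 5 neratinib and 6 vehicle libraries. The number shared by labels was taken to name the mouse, which the labels do not state. This gives 11 mice, with both kinds of cells from 8 and EpCAM+ cells only from 3. Libraries are named here by P or E for the population, N or V for the treatment, and that number, so that PN53178 and EN53178 are the PDPN+ and EpCAM+ libraries of 1 neratinib mouse. The hosts keep their own pancreas. The sources used here give no dose, sex, age or number of organoid lines.

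Amino acid carriers set which amino acids a cell can take up, exchange and recycle. SLC7 light chains such as Slc7a5 (LAT1) and Slc7a11 (xCT) reach the membrane joined to a heavy chain, mostly Slc3a2 (4F2hc, CD98), and exchange one amino acid for another, whereas the cationic carriers of the same family (CATs) work alone and carry arginine, lysine and ornithine. SLC1 carriers concentrate glutamate or small neutral amino acids with sodium, SLC38 carriers (SNATs) take up glutamine, alanine and related amino acids or work on lysosomes, and SLC43 carriers move large neutral amino acids. In pancreatic cancer, cystine uptake by xCT, glutamine uptake and alanine supplied by stroma are known parts of tumour metabolism.

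The depth per library, in reads assigned to genes (M, mega), was 30.3 to 48.1 M for PDPN+ and 39.4 to 75.4 M for EpCAM+ cells. Of the PDPN+ reads 6.14 to 19.4% were mitochondrial, and of the EpCAM+ reads 2.15 to 2.89%. The labelled cell types had their markers: the summed level of 8 fibroblast markers was 4994 to 8248 TPM (transcript abundance corrected for length and scaled to the same total in every library) in PDPN+ libraries and 8.81 to 80.5 TPM in EpCAM+ libraries, and that of 8 epithelial markers was 287 to 1220 TPM in PDPN+ and 18411 to 24940 TPM in EpCAM+ libraries, with no marker of either list at 0 in all libraries of a population. Markers of other cells differed between the populations too. Of 5 pericyte and smooth muscle markers 4 were higher in PDPN+ cells, with a sum of 31.6 to 110 TPM in PDPN+ and 0.718 to 13.5 TPM in EpCAM+ libraries. Of 4 lymphatic endothelial markers 3 were higher (0.679 to 900 TPM against 0.126 to 0.810 TPM), and so were 3 of 6 blood endothelial markers (3.40 to 42.4 TPM against 0.665 to 9.77 TPM). Of 8 macrophage and monocyte markers 4 were higher and 1 lower (27.3 to 452 TPM against 37.0 to 84.5 TPM), and of 5 mesothelial markers 3 were higher and 1 lower. The mesothelial sum was lower (408 to 1622 TPM against 4679 to 7630 TPM), but it includes Krt19, which is also in the epithelial list, so it does not measure mesothelial cells alone. All 6 islet markers were lower in PDPN+ cells (0.438 to 33.4 TPM against 161 to 4826 TPM). None of these lists had a marker at 0 in all libraries of a population, and the part of these cells in the differences between populations was not tested. Pdpn, on which the cells were sorted, had a log2 difference of 8.23 (SE 0.36) in PDPN+ minus EpCAM+ cells, and Epcam one of -11.05 (SE 0.93). On the first principal component of their population, some libraries stood apart: PV53175 and PV53188, which held 12057 and 11876 genes with at least 10 reads against 13642 to 18552 in the other 6, and EN53178, EV53175 and EV53176. Counts of genes that passed between the populations are given with and without these libraries. So are several of the differences that moved, or that lost or gained a call. In sorted bulk cells, fewer cells that express a gene and less of its RNA in each cell cannot be told apart.

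Of the 38 genes, 21 to 29 had at least 10 reads in a PDPN+ library and 25 to 28 in an EpCAM+ library, and together they held 465 to 836 TPM in PDPN+ and 535 to 802 TPM in EpCAM+ libraries. A few genes carried most of that level. In PDPN+ libraries the highest mean levels were those of Slc3a2 at 138 ± 60.3 TPM, Slc43a3 at 109 ± 33.0 TPM, Slc1a5 at 93.8 ± 62.1 TPM, Slc38a10 at 56.8 ± 26.2 TPM and Slc38a2 at 56.7 ± 12.1 TPM (SD, n = 8). In EpCAM+ libraries they were those of Slc3a2 at 226 ± 26.7 TPM, Slc38a2 at 118 ± 36.8 TPM, Slc38a10 at 91.9 ± 50.2 TPM, Slc7a7 at 57.4 ± 9.03 TPM and Slc7a4 at 43.7 ± 6.85 TPM (SD, n = 11). At the other end Slc7a12 had 0 reads in all 19 libraries, which allows up to 3 reads per library, or 0.0398 to 0.0989 CPM (reads scaled to the same total), for counting error only.

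**Figure D1:**
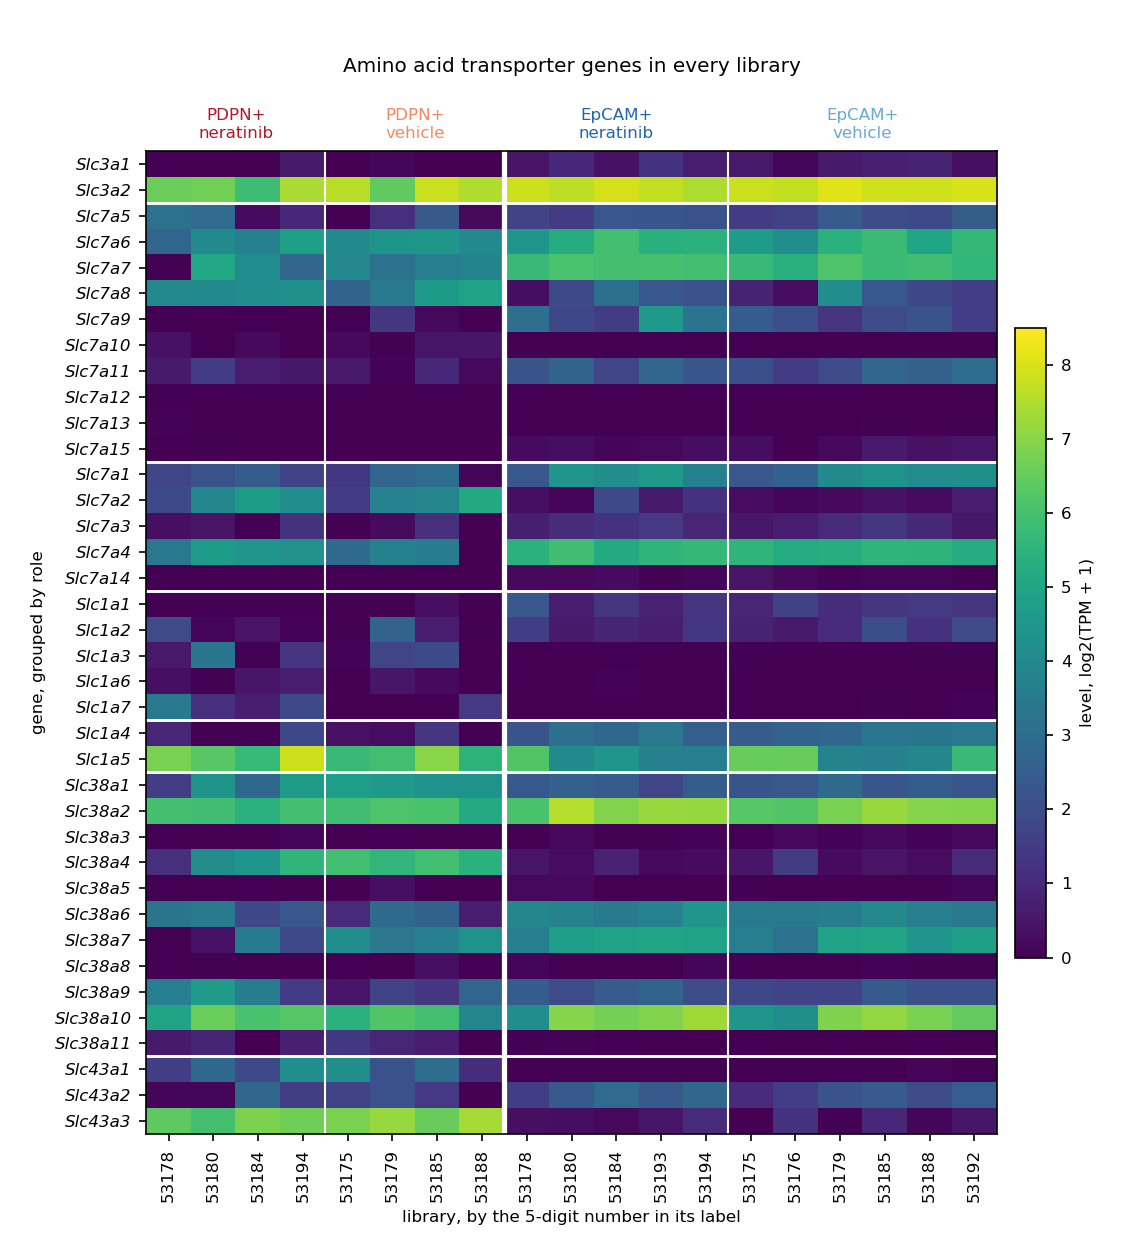
Level of each of the 38 genes (rows, grouped by role and separated by white lines) as log2(TPM + 1) in each of the 19 libraries (columns, by mouse number within group), from dark (0) to yellow (highest). Slc3a2 is bright in all columns, Slc43a3 is bright in the 8 PDPN+ columns only (63.2 to 164 TPM, against at most 1.33 TPM in EpCAM+ columns), and Slc1a5 is bright in the PDPN+ columns and, among EpCAM+ columns, brightest in EN53178, EV53175 and EV53176.

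PDPN+ and EpCAM+ cells differed in most of the carriers tested. PDPN+ cells had more RNA of the SLC43 carriers Slc43a3 and Slc43a1, the SNATs Slc38a4 and Slc38a1, the arginine carrier Slc7a2, the neutral exchanger Slc7a8 and, with more spread, the glutamine carrier Slc1a5. EpCAM+ cells had more of the cystine-glutamate exchanger Slc7a11, the exchanger Slc7a9, the serine-alanine carrier Slc1a4, the glutamate carrier Slc1a1 and the SNAT Slc38a6. They also had more of the exchanger Slc7a7, the CAT-family genes Slc7a1 and Slc7a4 and the SNAT Slc38a2, though in some fits these did not pass the test described next. Read counts were compared over all 19 libraries by the quasi-likelihood test of edgeR, and a gene passed where its p, adjusted over all genes tested by Benjamini and Hochberg's method, was under 0.05. Of 32 of the 38 genes that passed the filter on low counts, 23 passed the test, 11 higher and 12 lower in PDPN+ cells, and 9 did not pass. Over all 19626 genes tested 9672 passed, which is 49.3%, with 24.3% higher and 25.0% lower in PDPN+ cells. The median log2 difference was -0.30 over the 32 genes, also with the 5 genes that had 0 reads in a whole group of libraries set to a floor of 3 reads, and -0.13 over all genes tested. Of all calls 49.2% were higher in PDPN+ cells in this fit, against 38.2% with mouse as a block, 36.6 to 38.9% in 2 limma voom fits and 24.9 to 27.0% in limma fits of TPM values. In those fits the median over all genes was -0.67, -0.52 to -0.68 and -0.63 to -0.97, so small differences have to be read against that shift. The 6 genes below the filter were Slc1a6, Slc7a12, Slc7a13, Slc38a3, Slc38a5 and Slc38a8.

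**Figure D2:**
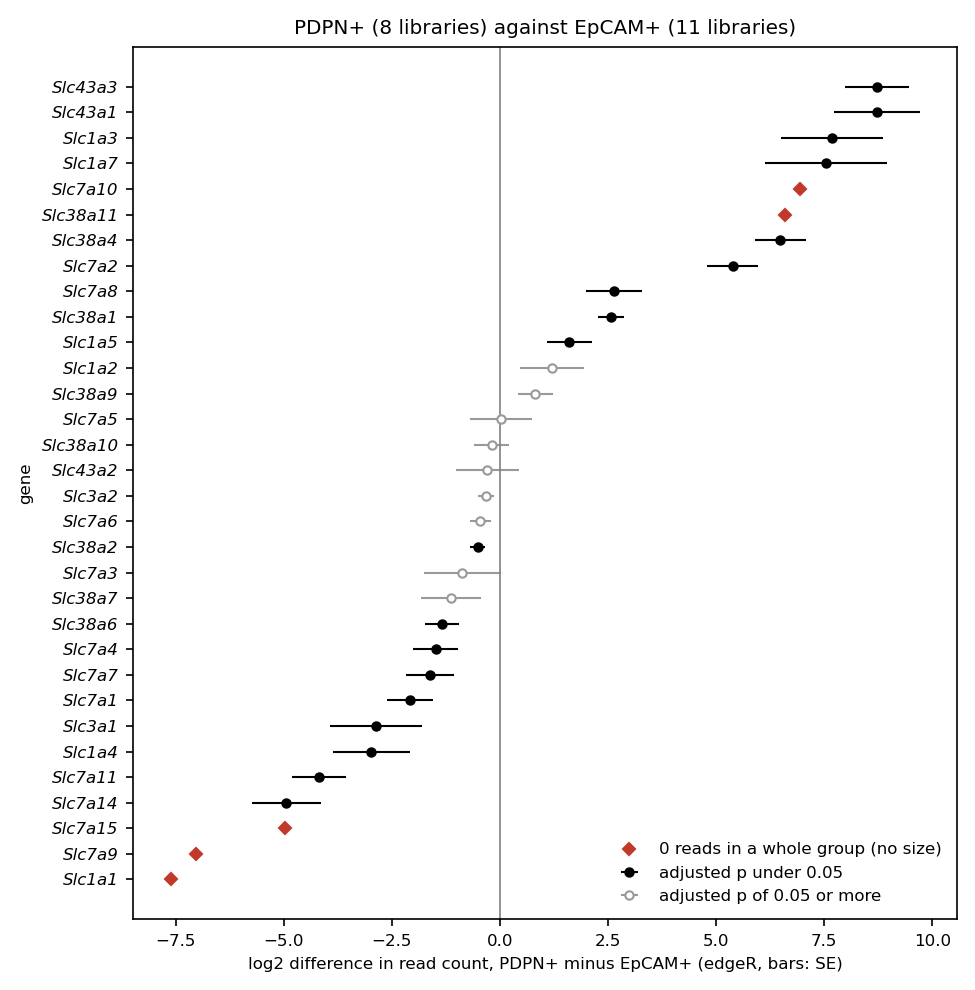
Log2 difference in read count of PDPN+ (8 libraries) minus EpCAM+ cells (11 libraries) for the 32 tested genes, from edgeR, with bars of 1 SE; filled points passed at an adjusted p under 0.05 and open points did not. Slc43a3 (8.72) and Slc43a1 (8.71) lie farthest to the right, and open points lie between -1.14 and 1.21. Diamonds mark Slc1a1, Slc7a9, Slc7a15, Slc7a10 and Slc38a11, which passed but had 0 reads in all libraries of at least 1 of the 4 groups, so that their place depends on the prior count of the fit and is no measured size.

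Of the 2 heavy chains, Slc3a2 (ENSMUSG00000010095) was abundant in both populations. Its lowest, median and highest levels were 57.1, 136 and 226 TPM in PDPN+ libraries, against 175, 231 and 269 TPM in EpCAM+ libraries. The populations overlapped in 3 PDPN+ libraries at 177 to 226 TPM, and the log2 difference of -0.32 (SE 0.18, adjusted p = 0.165, edgeR) did not pass. Without PV53175 and PV53188 it was -0.60 with an adjusted p of 0.0205, and it also passed without PN53194 (-0.53, adjusted p = 0.0193). In both limma fits of TPM values it passed at -0.83 and -0.84 (adjusted p = 0.00201 and 0.00374). The median over all genes was -0.63 and -0.97 there. Voom with sample weights gave -0.60 (adjusted p = 0.0230), with a median over all genes of -0.52. Slc3a1 (rBAT), the heavy chain that pairs with Slc7a9 in kidney and gut to take up cystine and cationic amino acids, was near the limit of detection: it had reads in 2 of 8 PDPN+ libraries, at 0.543 TPM in PN53194 and 0.111 TPM in PV53179, and 0.112 to 1.38 TPM in EpCAM+ libraries. It was lower in PDPN+ cells by a log2 difference of -2.87 (SE 1.06, adjusted p = 0.0310), which did not pass without PV53175 and PV53188 (adjusted p = 0.0990), without EN53193 (0.0508) or without PV53185 (0.05004).

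Among the 10 light chains, 8 were tested, of which 2 were higher and 4 lower in PDPN+ cells. Slc7a11 (ENSMUSG00000027737), whose exchange of glutamate for cystine feeds glutathione synthesis, had a lowest, median and highest level of 0.0475, 0.524 and 1.84 TPM in PDPN+ libraries, against 1.87, 3.81 and 7.02 TPM in EpCAM+ libraries. No PDPN+ library reached the lowest EpCAM+ one. Its log2 difference was -4.18 (SE 0.63, adjusted p = 2.33e-05, edgeR), an 18.2-fold lower read count in PDPN+ cells. Slc7a7 (y+LAT1), which exports cationic amino acids in exchange for neutral ones and is well known in gut, kidney and macrophages, had 0.0360, 12.4 and 32.8 TPM in PDPN+ libraries, against 39.5, 58.2 and 71.3 TPM in EpCAM+ libraries. The groups did not overlap, and its log2 difference was -1.61 (SE 0.55, adjusted p = 0.0217), or -2.22 with an adjusted p of 0.0561 with mouse as a block. Slc7a9 had no reads in 6 of 8 PDPN+ libraries and 1.57 TPM at most, against 1.50, 3.26 and 23.1 TPM in EpCAM+ libraries, and was lower in PDPN+ cells (adjusted p = 0.000330). Slc7a15 (arpAT), at up to 0.0337 TPM in PDPN+ and 0.540 TPM in EpCAM+ libraries, was also lower in PDPN+ cells. No log2 difference is given for these genes, since Slc7a9 had 0 reads in all PDPN+ neratinib and Slc7a15 in all PDPN+ vehicle libraries.

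Slc7a8 (LAT2), which exchanges small and large neutral amino acids, was the abundant light chain that was higher in PDPN+ cells. Its lowest, median and highest levels were 5.47, 16.4 and 29.3 TPM in PDPN+ libraries, against 0.222, 2.70 and 16.8 TPM in EpCAM+ libraries. EV53179, at 16.8 TPM, lay among the PDPN+ libraries, and the log2 difference was 2.64 (SE 0.65, adjusted p = 0.00232, edgeR). Slc7a10 (Asc-1), a carrier of small neutral amino acids known in brain and fat, had 0 reads in all 11 EpCAM+ libraries and 0 to 29 reads in PDPN+ libraries. Set against a floor of 3 reads per EpCAM+ library it was at least 4.47-fold higher in PDPN+ cells (adjusted p = 0.000958). The 2 light chains that did not pass were Slc7a6 (y+LAT2), with a log2 difference of -0.46 (SE 0.24), and Slc7a5. Without EN53178, EV53175 and EV53176, Slc7a6 passed at -0.66 (adjusted p = 0.0181), and it also passed without PN53194 (0.0373), with length offsets (0.0197) and in both limma fits of TPM values (-1.17 and -1.22). Slc7a5 (LAT1), the carrier of leucine and other large neutral amino acids that many tumours use, was low in both populations, at 0.00939 to 7.98 TPM in PDPN+ and 1.82 to 4.74 TPM in EpCAM+ libraries. Its PDPN+ values spread more widely on both sides of the EpCAM+ range, and its log2 difference of 0.02 (95% interval from its SE, -1.37 to 1.41) changed sign with the scaling.

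The cationic carriers split in a similar way, with 1 higher and 3 lower of 5 tested. Slc7a2 (ENSMUSG00000031596, chromosome 8), an arginine carrier known in liver and activated macrophages, had a lowest, median and highest level of 1.84, 13.8 and 34.5 TPM in PDPN+ libraries, against 0.0852, 0.278 and 2.71 TPM in EpCAM+ libraries. PN53178, at 2.67 TPM, and PV53175, at 1.84 TPM, lay just below the highest EpCAM+ library. The log2 difference was 5.39 (SE 0.59, adjusted p = 5.53e-07, edgeR). Slc7a1 (CAT1), the widespread arginine and lysine carrier, had 0.0818, 2.96 and 7.09 TPM in PDPN+ libraries, against 3.91, 16.2 and 23.1 TPM in EpCAM+ libraries. The 3 lowest EpCAM+ values, 3.91 to 5.21 TPM, were those of EN53178, EV53175 and EV53176, and only these overlapped the PDPN+ range. Slc7a1 was lower in PDPN+ cells by a log2 difference of -2.09 (SE 0.53, adjusted p = 0.00305), but not past the threshold in 2 limma voom fits (adjusted p = 0.0655 with sample weights and 0.193 with weights per population). Slc7a4, a CAT relative, had 0.0163 to 24.9 TPM in PDPN+ and 35.4 to 58.6 TPM in EpCAM+ libraries without overlap, a log2 difference of -1.48 (SE 0.52, adjusted p = 0.0244), which was -1.89 with an adjusted p of 0.0928 with mouse as a block and did not pass without the 3 EpCAM+ libraries that stood apart (adjusted p = 0.0581). Slc7a14, a lysosomal relative at up to 0.353 TPM in any library and 0 to 3 reads in PDPN+ libraries, was lower in PDPN+ cells (log2 difference -4.94, SE 0.81). Slc7a3 (CAT3) did not pass (log2 difference -0.87, SE 0.89). It passed in both limma fits of TPM values (-0.54 and -1.71, adjusted p = 0.0287 and 0.00871), where the median over all genes was -0.63 and -0.97. Voom with weights per population gave -2.61 (adjusted p = 0.0282).

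Slc7a2 is spliced with either of 2 alternative copies of 1 exon, which in mouse separate a low-affinity carrier (CAT-2A) from a high-affinity one (CAT-2B). The transcripts quantified by the authors carry both forms, so the exons are shown here because the share of each differed between libraries. The first is exon 7 of 12 of the transcript named 201 in GENCODE M21 (137 bases), the second exon 7 of 12 of the transcript named 202 and of another coding transcript (140 bases). Both are coding sequence, printed 5′ to 3′, and capitals in the second mark bases that differ from the first in a global alignment, in which 61.0% of the columns were the same.
Slc7a2 exon 7 of transcript 201: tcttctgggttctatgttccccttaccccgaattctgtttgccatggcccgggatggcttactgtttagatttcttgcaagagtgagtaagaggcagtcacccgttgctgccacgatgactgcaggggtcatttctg
Slc7a2 exon 7 of transcript 202: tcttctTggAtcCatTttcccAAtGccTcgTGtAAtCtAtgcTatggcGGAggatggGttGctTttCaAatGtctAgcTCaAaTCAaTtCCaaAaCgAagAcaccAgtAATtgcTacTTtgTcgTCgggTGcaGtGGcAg
Of the TPM on transcripts with either exon, the form of transcript 202 made up 13.9, 66.8, 98.4 and 89.4% in PN53178, PN53180, PN53184 and PN53194. In PV53175, PV53179, PV53185 and PV53188 it made up 0, 54.3, 57.8 and 82.9%. The 2 libraries with the least Slc7a2 had the lowest shares of this form, and the treatments overlapped. At the low EpCAM+ level of Slc7a2 the same share ran from 0 to 89.0% and was not read further.

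In the SLC1 family the acidic amino acid carriers were scarce in both populations. Slc1a1 (EAAC1), a glutamate and cysteine carrier of epithelia and neurons, had reads in 2 of 8 PDPN+ libraries, at 0.265 TPM at most, against 0.590, 1.47 and 3.97 TPM (lowest, median and highest) in EpCAM+ libraries, without overlap. It was lower in PDPN+ cells (adjusted p = 3.78e-05, edgeR), with no size given because all PDPN+ neratinib libraries had 0 reads. Slc1a3 (GLAST), the main glutamate carrier of many astrocytes, had 0, 0.959 and 8.96 TPM in PDPN+ libraries and 0.0430 TPM at most in EpCAM+ libraries. It was higher in PDPN+ cells (log2 difference 7.68, SE 1.18, adjusted p = 2.69e-05), with 1 PDPN+ library, PV53188, at 0 and PN53180 at 8.96 TPM. The EpCAM+ libraries held 0 to 2 reads of it each, so this size depends on the prior count of the fit. Over the settings it ran from 1.11 to 8.30. Slc1a7 (EAAT5), known from retina, passed too (log2 difference 7.55, SE 1.41, adjusted p = 0.000207), but rested on the libraries that held its reads: 513, 75, 46 and 139 reads in the 4 PDPN+ neratinib libraries, and 0, 0, 0 and 102 in the 4 vehicle ones, and without PV53188 its adjusted p was 0.966. With mouse as a block it was 0.158. The EpCAM+ libraries held 0 to 3 reads of Slc1a7 each, and its log2 difference ran from 1.07 to 8.18 over the settings. Slc1a2 (GLT-1) did not pass (log2 difference 1.21, SE 0.74), and its sign turned in limma fits of TPM values and with mouse as a block.

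The 2 neutral SLC1 carriers differed in opposite directions. Slc1a4 (ASCT1), which carries serine, alanine and cysteine, had 0, 0.258 and 2.60 TPM in PDPN+ libraries, against 3.64, 6.35 and 9.68 TPM in EpCAM+ libraries. No library of one population reached the other, and the log2 difference was -2.97 (SE 0.90, adjusted p = 0.0101, edgeR). Slc1a5 (ENSMUSG00000001918, ASCT2), a main route of glutamine uptake in proliferating cells, had 44.3, 68.9 and 229 TPM in PDPN+ libraries, against 11.6, 16.0 and 92.0 TPM in EpCAM+ libraries. The EpCAM+ values fell into 7 libraries at 11.6 to 21.6 TPM, EV53192 at 51.7 TPM, and EN53178, EV53175 and EV53176 at 72.8 to 92.0 TPM, inside the PDPN+ range. Slc1a5 was higher in PDPN+ cells by a log2 difference of 1.61 (SE 0.52, adjusted p = 0.0152). This call did not pass without PN53194, the library at 229 TPM (1.23, adjusted p = 0.0582), nor from reads of protein-coding transcripts alone (1.21, adjusted p = 0.282). Without EN53178, EV53175 and EV53176 the log2 difference was 2.70 (SE 0.41, adjusted p = 6.37e-05).

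Of the 11 SLC38 carriers 8 were tested, of which 3 were higher and 2 lower in PDPN+ cells. Slc38a4 (SNAT4), a sodium-coupled carrier of alanine and other neutral amino acids best known in liver and placenta, had 1.20, 44.1 and 60.3 TPM in PDPN+ libraries, against 0.138, 0.350 and 1.78 TPM in EpCAM+ libraries. PN53178, at 1.20 TPM, was the only one within the EpCAM+ range, and the log2 difference was 6.49 (SE 0.60, adjusted p = 6.33e-08, edgeR). Slc38a1 (SNAT1), a glutamine and alanine carrier, had 1.95, 19.7 and 25.5 TPM in PDPN+ libraries, against 2.44, 4.04 and 6.61 TPM in EpCAM+ libraries. Again PN53178 was the lowest, at 1.95 TPM, followed by PN53184 at 6.20 TPM, and the log2 difference was 2.57 (SE 0.30, adjusted p = 1.20e-06). Slc38a11, at 1.58 TPM at most, was also higher in PDPN+ cells (adjusted p = 0.000256). In the other direction Slc38a2 (SNAT2), the carrier that cells induce when amino acids are short, had 35.3, 60.0 and 71.0 TPM in PDPN+ libraries, against 66.1, 120 and 187 TPM in EpCAM+ libraries. Its 3 lowest EpCAM+ values, 66.1 to 76.7 TPM, were again those of EN53178, EV53175 and EV53176. The log2 difference was -0.52 (SE 0.17, adjusted p = 0.0160). With mouse as a block it was -0.54 and did not pass (adjusted p = 0.0806), where the median over all genes was -0.67. Nor did it pass in 2 limma voom fits (-0.62 and -0.49, adjusted p = 0.0805 and 0.309), where the median over all genes was -0.52 and -0.68.

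Slc38a6 (SNAT6) had 0.600, 4.58 and 10.5 TPM in PDPN+ libraries, against 9.66, 11.5 and 20.5 TPM in EpCAM+ libraries, and was lower in PDPN+ cells (log2 difference -1.34, SE 0.40, adjusted p = 0.00878, edgeR). Only the highest PDPN+ library, PN53180, lay within the EpCAM+ range. Slc38a9, the arginine sensor upstream of mTORC1 on lysosomes, had a log2 difference of 0.82 (SE 0.41, adjusted p = 0.104) and did not pass, except without PN53194 (adjusted p = 0.0340) or with length offsets (0.0409). Slc38a7 (SNAT7), which releases glutamine from lysosomes, had one of -1.14 (SE 0.69, adjusted p = 0.186). Without PN53184 it was -2.44 and passed (adjusted p = 0.00313), as it did in both limma fits of TPM values (-1.82 and -2.48) and in both voom fits (-2.71 and -2.59). Slc38a7 ranged from 0 to 19.6 TPM in PDPN+ libraries, against 8.10 to 32.0 TPM in EpCAM+ libraries. Slc38a10 did not pass either (log2 difference -0.19, SE 0.40).

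The largest difference of an abundant gene was that of Slc43a3, in the SLC43 family. Slc43a3 (ENSMUSG00000027074), which in human cells carries purine nucleobases and is grouped here by sequence family, had 63.2, 105 and 164 TPM in PDPN+ libraries, against 0.00680, 0.282 and 1.33 TPM in EpCAM+ libraries. All 8 PDPN+ libraries lay far above all 11 EpCAM+ libraries, with a log2 difference of 8.72 (SE 0.73, adjusted p = 1.83e-08, edgeR). Slc43a1 (LAT3), a carrier of leucine and other large neutral amino acids, had 1.18, 4.74 and 17.7 TPM in PDPN+ libraries, against 0, 0.0112 and 0.118 TPM in EpCAM+ libraries. These did not overlap either, and the log2 difference was 8.71 (SE 0.99, adjusted p = 8.51e-07). With 0 to 12 reads of Slc43a1 in EpCAM+ libraries, this size depends on the prior count and ran from 2.59 to 9.53 over the settings. Slc43a2 (LAT4), a related carrier, did not pass (log2 difference -0.29, SE 0.73), with 0.0189 to 5.98 TPM in PDPN+ and 1.06 to 6.77 TPM in EpCAM+ libraries. It passed only in both limma fits of TPM values (-0.95 and -1.90, adjusted p = 0.0307 and 0.0295), where the median over all genes was -0.63 and -0.97.

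Some of these levels sat on transcripts that do not encode the carrier. Among genes with a mean of at least 1 TPM, the median share of TPM on protein-coding transcripts was 90.1% over 22 genes in PDPN+ and 88.3% over 20 genes in EpCAM+ libraries, and 4 genes in PDPN+ and 2 in EpCAM+ libraries had under 50%. For Slc1a5 the coding share was 33.8% of the mean in PDPN+ and 47.3% in EpCAM+ libraries, and retained-intron transcripts made up 65.8% in PDPN+ and 51.7% in EpCAM+ libraries. Its coding level alone ranged from 0 to 139 TPM in PDPN+ and from 3.68 to 47.7 TPM in EpCAM+ libraries, which overlap. Slc1a7 in PDPN+ libraries was on a retained-intron class alone, and Slc1a3 and Slc38a9 had coding shares of 20.4% and 13.9% there. For Slc7a1 the coding share was 54.0% in PDPN+ and 93.3% in EpCAM+ libraries, and for Slc7a11 it was 7.34% in PDPN+ and 92.1% in EpCAM+ libraries, so that coding Slc7a11 stood at 0.00845 to 0.152 TPM in PDPN+ and 1.64 to 6.63 TPM in EpCAM+ libraries. In contrast all TPM of Slc7a2 and Slc38a4, and 98.4% of Slc43a3 in PDPN+ libraries, were on coding transcripts. Tested on reads of protein-coding transcripts alone, an alternative added after the data were seen, 8 genes were higher and 11 lower in PDPN+ cells of 29 tested, beside 46.9% of all genes (22.9% higher and 24.0% lower). All 19 were among the 23 above, of which Slc1a3, Slc1a5, Slc1a7 and Slc7a15 had no call here.

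**Figure D3:**
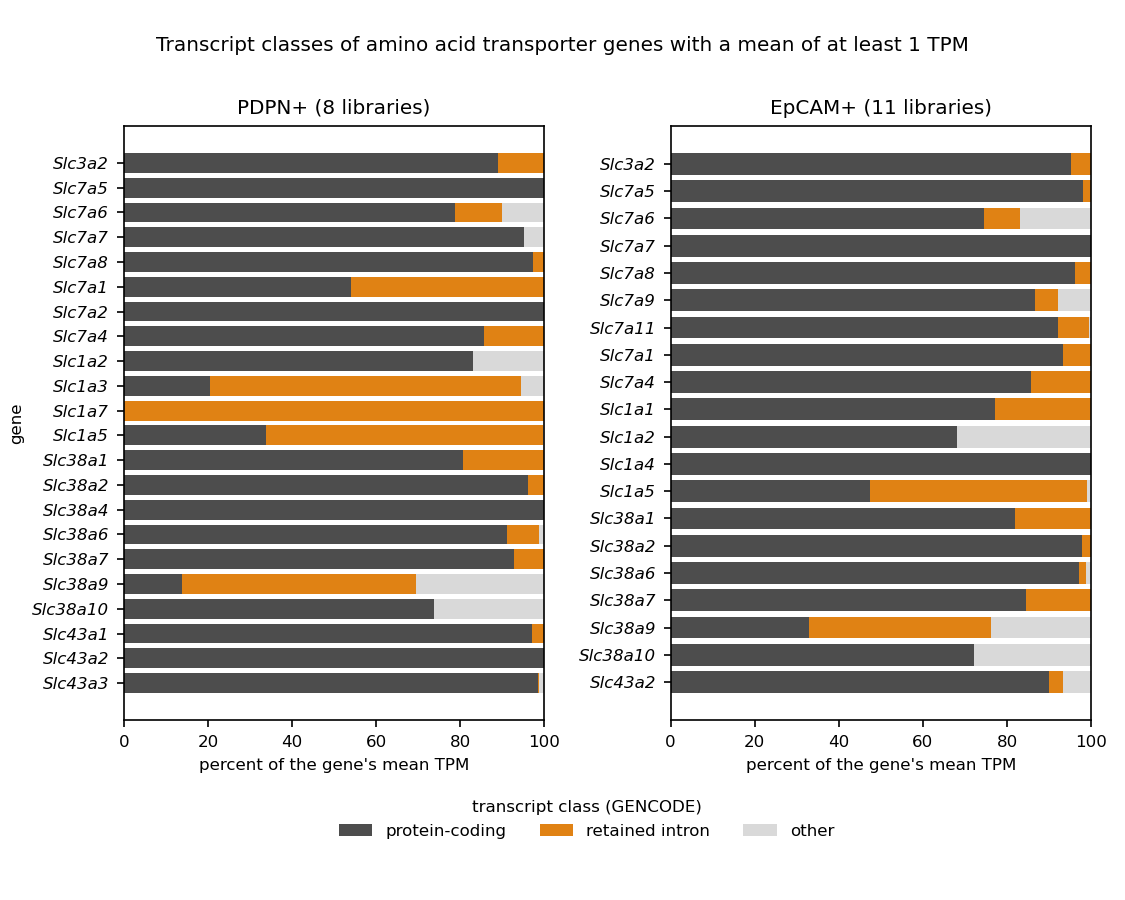
Share of each gene's mean TPM (percent) on protein-coding, retained-intron and other transcripts in PDPN+ (left, 8 libraries) and EpCAM+ cells (right, 11 libraries), for genes with a mean of at least 1 TPM. In PDPN+ cells retained introns fill the bar of Slc1a7 and 65.8% of that of Slc1a5, while Slc7a2 and Slc38a4 are coding throughout.

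The promoters of these genes were searched for 2 motifs that fit the known biology of amino acid supply. One is the composite element of ATF4 and C/EBP (TGATGNAA), through which amino acid shortage acts, and the other the core of the antioxidant response element (TGACNNNGC), through which NRF2 acts. Both strands were searched in the RefSeq windows from 250 bases before to 50 after the start (build GRCm38.p6), in which 28 of the 38 genes had 39 promoters. The composite element was found in 4 of the 39 promoters, those of Slc1a4, Slc7a7 and Slc7a11, and in 3.97% of all 32851 promoters. These genes were lower in PDPN+ cells, as were 12 of the 23 members that passed, and a link to the element was not tested. Of 16 genes of a list of ATF4 targets and the integrated stress response, 7 held the element in any of their promoters. The antioxidant core was found in 5 of the 39 promoters, those of Slc7a1, Slc7a6, Slc38a2 and Slc43a1, which did not share a direction, and in 12.4% of all promoters. Slc7a11 and Slc1a4 are shown as examples, with the composite element in capitals. Their levels did not overlap between the populations. Neither did those of Slc7a7, which held the element too and is not shown. The first match of Slc7a11 began 66 bases before the start, with another on the opposite strand beside it, and that of Slc1a4 began 4 bases before the start.
Slc7a11 promoter, chr3:50443564-50443863, GRCm38.p6, minus strand: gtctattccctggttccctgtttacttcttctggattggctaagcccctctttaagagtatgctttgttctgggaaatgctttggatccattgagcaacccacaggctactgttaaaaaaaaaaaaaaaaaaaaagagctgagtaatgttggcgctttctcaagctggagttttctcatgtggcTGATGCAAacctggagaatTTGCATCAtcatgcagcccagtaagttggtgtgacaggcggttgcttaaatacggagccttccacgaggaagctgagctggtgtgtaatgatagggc
Slc1a4 promoter, chr11:20332664-20332963, GRCm38.p6, minus strand: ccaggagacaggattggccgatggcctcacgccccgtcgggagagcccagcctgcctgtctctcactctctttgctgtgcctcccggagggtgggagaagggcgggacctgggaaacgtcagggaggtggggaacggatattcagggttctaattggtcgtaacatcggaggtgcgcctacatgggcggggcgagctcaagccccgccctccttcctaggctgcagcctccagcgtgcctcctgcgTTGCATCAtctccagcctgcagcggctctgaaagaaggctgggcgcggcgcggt

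The population difference was also taken within each treatment, in the same fit. In neratinib mice 11 members were higher and 6 lower in PDPN+ cells, beside 38.9% of all genes that passed (18.9% higher and 19.9% lower). In vehicle mice 10 were higher and 7 lower, beside 33.1% of all genes (17.7% higher and 15.3% lower). Slc43a3, Slc43a1, Slc38a4, Slc38a1, Slc7a2 and Slc7a8 passed as higher and Slc7a11, Slc1a1, Slc7a14 and Slc7a15 as lower in both. The scarce Slc1a3, Slc1a7, Slc7a10 and Slc38a11 passed as higher in both too. Slc43a3 had log2 differences of 8.77 (SE 1.06) in neratinib mice and 8.67 (SE 0.97) in vehicle mice, and Slc7a11 of -3.55 (SE 0.87) in neratinib mice and -4.82 (SE 0.92) in vehicle mice. Slc1a5 passed in neratinib mice (2.54, SE 0.77, adjusted p = 0.0143) and not in vehicle mice (0.68, SE 0.71, adjusted p = 0.509), and the difference between these did not pass (1.86, SE 1.06, unadjusted p = 0.0947, adjusted p = 0.584). In neratinib mice Slc1a5 did not pass with mouse as a block (adjusted p = 0.0648), without PN53194 (0.0687), from reads of protein-coding transcripts alone (0.217) or in limma voom with weights per population (0.0516). In vehicle mice it passed once EN53178, EV53175 and EV53176 were left out (1.89, SE 0.56, adjusted p = 0.0192).

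With mouse as a block 7 members were higher and 4 lower in neratinib mice, beside 3307 of 19078 genes that passed. In vehicle mice 6 were higher and 3 lower, beside 2532 of 19078 genes. Of the genes named as passing in both, Slc38a1 (adjusted p = 0.0511), Slc7a15 (0.0789), Slc38a11 (0.0843) and Slc7a10 (0.113) then did not pass in neratinib mice. Neither did Slc7a8 (0.109), Slc1a1 (0.0806), Slc7a10 (0.0733), Slc1a3 (0.302) and Slc1a7 (0.833) in vehicle mice. In vehicle mice Slc1a4, Slc1a7, Slc38a6 and Slc7a8 did not pass without PV53175 and PV53188 (adjusted p = 0.185, 0.257, 0.0922 and 0.154). There 9 members were higher and 6 lower, beside 5829 of 21826 genes that passed, and Slc1a6 and Slc38a3 gained a call. Slc1a7 had 0 reads in the PDPN+ vehicle libraries left, and its log2 difference turned to -3.30, a size that depends on the prior count. Without the 3 EpCAM+ libraries that stood apart, Slc1a4, Slc1a7, Slc38a6 and Slc7a4 did not pass in vehicle mice (adjusted p = 0.0771, 0.114, 0.0540 and 0.0787). There 10 members were higher and 6 lower, beside 5265 of 19067 genes, and Slc1a5, Slc38a2 and Slc7a1 gained a call. In neratinib mice 22 members passed without PV53175 and PV53188, 9 of them lower, beside 10005 of 21826 genes. There Slc1a6, Slc38a2, Slc38a6, Slc38a9 and Slc7a4 gained a call. Without the 3 EpCAM+ libraries 18 members passed, 7 of them lower, beside 6467 of 19067 genes, and Slc38a2 gained a call. With all libraries 7627 of 19626 genes passed in neratinib mice. Slc7a8 did not pass in vehicle mice without PV53188 alone (adjusted p = 0.161), in voom with sample weights (0.0588) or without the filter on low counts (0.0513). Nor did it when 1 of several EpCAM+ vehicle libraries was left out, such as EV53192 (0.0802). In neratinib mice Slc7a15 did not pass in 2 voom fits (0.180 and 0.308) or without 1 of several libraries, such as PN53184 (0.0802). Slc7a14 did not pass there in the voom fits (0.0559 and 0.0863). Nor did Slc38a1 in the limma fits of TPM values (0.0638 and 0.0919), or Slc7a8 without EN53180 (0.0585). Slc38a11 did not pass there without EN53180, EN53184 or EN53193 (0.0541, 0.0526 and 0.0504). In vehicle mice Slc7a15 did not pass in voom with weights per population (0.216), nor Slc1a3 in the limma fits of TPM values (0.132 and 0.0716).

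The neratinib effect did not differ between the populations for any of the 32 tested members at an adjusted p under 0.05, where 13 of 19626 genes (0.0662%) passed. The smallest p-values of edgeR in these were those of Slc7a9 (adjusted p = 0.145) and Slc1a1 (adjusted p = 0.237). Both had 0 reads in all PDPN+ neratinib libraries, so no size is given for them. Slc7a9 passed in DESeq2 (adjusted p = 0.00174) and without PV53175 and PV53188 (adjusted p = 0.00557). Slc1a7 passed without PV53188 alone (adjusted p = 0.0289) or without both (adjusted p = 0.0181), which leaves the PDPN+ vehicle group with 0 reads of it.

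To examine the question of the study's design, neratinib against vehicle, each population was tested alone. In PDPN+ cells no gene of 14437 passed in edgeR (0% called), and none of the 27 members tested. At an unadjusted p under 0.05 there were 331 genes (2.29%) and 0 members. The median log2 difference was 0.27 over the 27 members and 0.06 over all genes, with 17 members above 0 and 10 below, and the median SE of a member was 1.06. DESeq2 called 13 genes, and the other settings 0 to 111, with 0 members in each.

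Slc1a5 had the smallest p of the members in PDPN+ cells. It had 110, 77.9, 50.9 and 229 TPM in the neratinib libraries PN53178, PN53180, PN53184 and PN53194, against 52.1, 59.9, 126 and 44.3 TPM in the vehicle libraries PV53175, PV53179, PV53185 and PV53188. The groups overlapped, and the log2 difference of 0.99 (SE 0.47, unadjusted p = 0.0594, adjusted p = 1.000) did not pass. Slc38a4 had 1.20, 17.4, 20.4 and 46.5 TPM in the neratinib libraries, against 59.6, 47.0, 60.3 and 41.7 TPM in the vehicle libraries. Of the neratinib libraries 3 lay below all vehicle libraries and PN53194 did not, with a log2 difference of -1.35 (SE 0.68, unadjusted p = 0.0738). Slc38a1 had 1.95, 19.9, 6.20 and 24.3 TPM, against 25.5, 23.1, 19.3 and 19.4 TPM, with low values in PN53178 and PN53184 and a log2 difference of -1.07 (SE 0.56, unadjusted p = 0.0821). Slc3a2 had 94.6, 103, 57.1 and 169 TPM, against 190, 84.3, 226 and 177 TPM (log2 difference -0.69, SE 0.39, unadjusted p = 0.105). Slc7a5, Slc7a11, Slc7a1 and Slc38a2, which had been chosen as known carriers of tumour metabolism, had log2 differences of 1.91 (SE 1.65), 1.24 (SE 1.38), -0.29 (SE 1.06) and 0.06 (SE 0.25).

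Markers of other cells varied between the PDPN+ libraries as well. The summed level of 8 macrophage and monocyte markers was 57.8 to 452 TPM in neratinib and 27.3 to 106 TPM in vehicle libraries, with Adgre1 at 0 in all neratinib libraries. That of 4 lymphatic endothelial markers was 0.679 to 900 TPM in neratinib and 1.38 to 12.2 TPM in vehicle libraries. PN53178, which was lowest in Slc38a4, Slc38a1 and Slc7a7, had the highest shares of mitochondrial reads (19.4%) and of reads on unmatched transcripts (8.96%). The part of these in the values above was not tested.

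In EpCAM+ cells no gene of 17200 passed in edgeR (0% called) and none of the 27 members, while 524 genes (3.05%) and 2 members had an unadjusted p under 0.05. DESeq2 called 8 genes and 0 members. The median log2 difference was 0.05 over the members and -0.00 over all genes, and the median SE of a member was 0.38. Slc7a2 had 0.278, 0.122, 2.71, 0.548 and 1.32 TPM in the neratinib libraries EN53178, EN53180, EN53184, EN53193 and EN53194, against a lowest, median and highest level of 0.0852, 0.210 and 0.583 TPM in the 6 vehicle libraries. Of the neratinib libraries 2 lay above all vehicle libraries, and the log2 difference was 1.66 (SE 0.66, unadjusted p = 0.0273, adjusted p = 0.999). Slc7a9 had 7.68, 2.54, 1.84, 23.1 and 8.52 TPM in the neratinib libraries, against 1.50, 3.12 and 4.56 TPM in the vehicle libraries. Here 3 neratinib libraries lay above all vehicle libraries, and the log2 difference was 1.51 (SE 0.61, unadjusted p = 0.0296, adjusted p = 0.999). Slc3a2 had 231, 201, 247, 208 and 175 TPM, against 209, 237 and 269 TPM, with 3 neratinib libraries below all vehicle libraries and a log2 difference of -0.23 (SE 0.11, unadjusted p = 0.0577). Slc1a5, Slc7a1, Slc38a2, Slc7a11 and Slc7a5 had log2 differences of -0.89 (SE 0.80), 0.20 (SE 0.48), 0.22 (SE 0.23), -0.08 (SE 0.34) and -0.07 (SE 0.28).

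**Figure D4:**
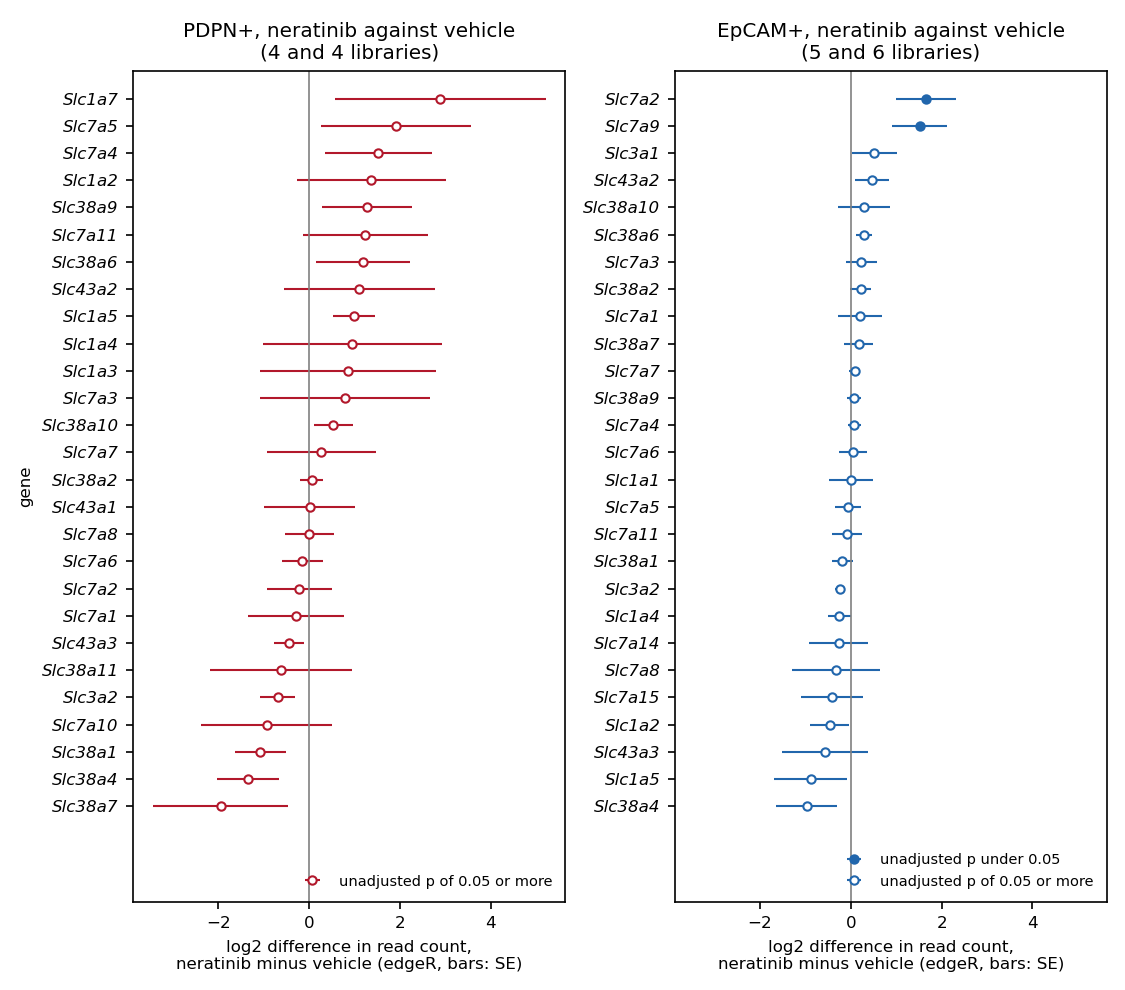
Log2 difference in read count of neratinib minus vehicle for the 27 tested genes in PDPN+ (left, 4 and 4 libraries) and in EpCAM+ cells (right, 5 and 6 libraries), from edgeR, with bars of 1 SE; filled points had an unadjusted p under 0.05. Filled points are Slc7a2 (1.66) and Slc7a9 (1.51) in EpCAM+ cells, and bars are wider in PDPN+ cells, with a median SE of 1.06 against 0.38.

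EN53178, EV53175 and EV53176 lay apart from the other 8 EpCAM+ libraries in several of these genes. These libraries were set apart by the first principal component of all genes, so the values are a description with no test. Slc1a5 lay at 72.8, 91.4 and 92.0 TPM in these 3 libraries, against 11.6 to 51.7 TPM (median 13.6) in the other 8. Slc38a10, a carrier of the SNAT family, went the other way, with 17.0, 21.8 and 17.9 TPM in the 3 libraries, against 86.2 to 156 TPM. Slc7a1 lay at 3.91, 3.93 and 5.21 TPM, against 12.4 to 23.1 TPM, and Slc38a2 at 66.1, 76.7 and 71.8 TPM, against 110 to 187 TPM. Slc7a6, Slc7a8, Slc38a7 and Slc43a2 were lower in the 3 libraries without overlap too. Of the 27 members tested in EpCAM+ cells 7 lay wholly below and 1 wholly above the other 8 libraries, and 19 overlapped, where 17.6% of all genes lay below and 7.78% above. Slc3a2, Slc7a7, Slc7a4 and Slc7a11 were among those that overlapped.

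Islet and neutrophil markers differed along with these genes. The summed level of 6 islet markers, none at 0 in all libraries, was 1850 to 4826 TPM in the 3 libraries, against 161 to 764 TPM in the other 8, and that of 6 neutrophil markers was 33.7 to 97.7 TPM, against 1.71 to 17.0 TPM. Epithelial markers summed to 18411 to 22984 TPM in the 3 libraries, against 18421 to 24940 TPM. The part of the other cells in the values of the transporter genes was not tested. Without these 3 libraries 0 genes passed in the neratinib comparison of EpCAM+ cells, as with them. Between the populations 11 members were then higher and 12 lower in PDPN+ cells, beside 8658 of 19067 genes that passed. The log2 difference between the populations was then -2.40 (SE 0.50) for Slc7a1, -0.68 (SE 0.13) for Slc38a2 and 2.24 (SE 0.49) for Slc7a8, all still past the threshold. It was -0.55 (SE 0.24) for Slc38a10, -1.37 (SE 0.77) for Slc38a7 and -0.52 (SE 0.83) for Slc43a2, none of which passed. Without PV53175 and PV53188, 11 members were higher and 13 lower in PDPN+ cells, beside 11018 of 21826 genes that passed. These members included Slc3a2, and Slc1a6 and Slc38a3, which were below the filter in the main fit. Slc1a7 and Slc3a1 lost their calls.

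**Figure D5:**
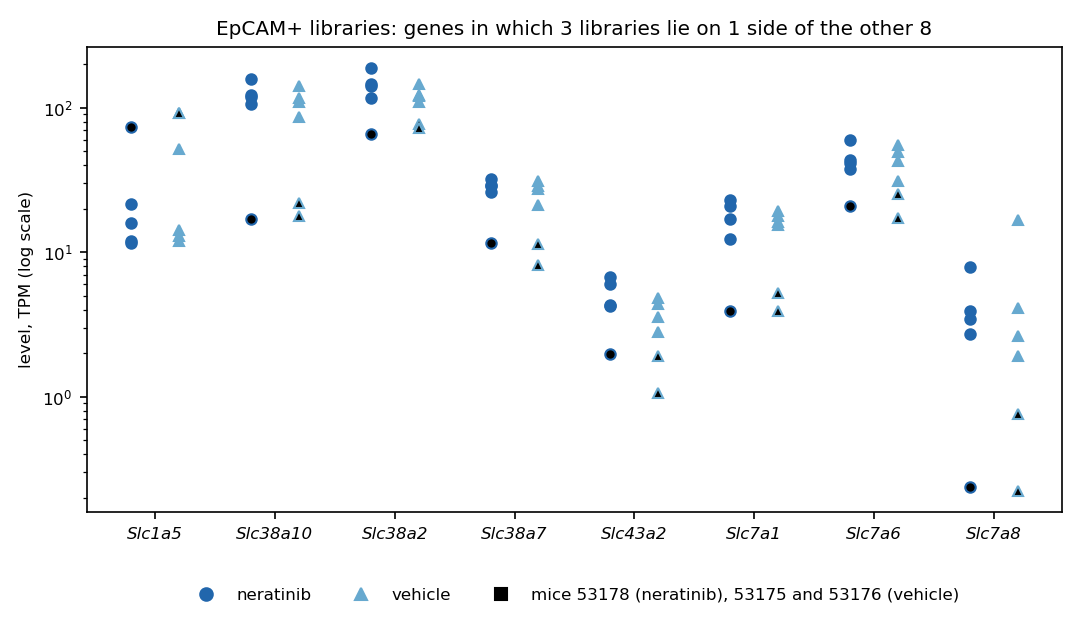
Level in TPM (log scale) of the 8 genes whose values in EN53178, EV53175 and EV53176, filled black, lay on 1 side of all other EpCAM+ libraries; circles are 5 neratinib and triangles 6 vehicle libraries. Black points are highest for Slc1a5 (72.8 to 92.0 TPM) and lowest for the other genes, such as Slc38a10 (17.0 to 21.8 TPM).

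Genes that sense, make or use the amino acids were examined as 8 lists, in counts alone. Between 37.5 and 66.7% of the tested genes of a list passed between the populations, beside 49.3% of all genes (24.3% higher and 25.0% lower), so that counts near these shares say nothing particular about a list. In PDPN+ against EpCAM+ cells, 6 of 16 genes of the integrated stress response and its factor ATF4 were higher and 3 lower, with a median log2 difference of -0.22 beside -0.13 over all genes. Atf4 itself, the factor that induces many carriers when amino acids are short, was higher in PDPN+ cells (log2 difference 1.09, SE 0.17), as were Cebpb (4.46, SE 0.35), Nupr1 (1.84, SE 0.25) and Ddit3 (1.66, SE 0.22). Of 10 genes that make serine, glycine, asparagine and proline, 1 was higher and 4 lower in PDPN+ cells. Asparagine synthetase, Asns, was among the lower ones (-1.01, SE 0.38, adjusted p = 0.0345, edgeR), and so was Phgdh, the first enzyme of serine synthesis (-1.27, SE 0.31). Pycr1, an enzyme of proline synthesis, was the higher one (0.96, SE 0.34).

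In glutathione synthesis and NRF2 targets 3 of 12 were higher and 5 lower in PDPN+ cells. Ggt1, which breaks down glutathione outside the cell and so frees cysteine, was all but absent from PDPN+ cells, at a mean of 0 TPM in neratinib and 0.0175 TPM in vehicle libraries, against 102 and 69.3 TPM in the EpCAM+ neratinib and vehicle libraries. Gss, the glutathione synthetase, was lower as well (-1.96, SE 0.21), and Hmox1, which breaks down haem, was higher (1.99, SE 0.35). Of 8 genes of branched-chain amino acid breakdown 2 were higher and 3 lower. Bcat1, the cytosolic enzyme that starts it, had means of 23.1 and 14.8 TPM in PDPN+ neratinib and vehicle libraries, against 0.00276 and 0.0157 TPM in EpCAM+ neratinib and vehicle libraries. Bckdhb, a subunit of the dehydrogenase that follows, was higher too (2.78, SE 0.61). In glutamine and glutamate metabolism 1 of 8 was higher, Glud1 (0.95, SE 0.17), and 2 were lower, Gfpt1 (-2.11, SE 0.22), which opens the hexosamine pathway, and glutamine synthetase, Glul (-1.08, SE 0.35).

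In arginine, proline and polyamine metabolism 3 of 9 were higher in PDPN+ cells, among them the polyamine enzymes Odc1 (2.11, SE 0.23) and Sat1 (0.67, SE 0.16), and 2 were lower, among them Asl (-1.14, SE 0.20), which makes arginine. Of 20 genes of amino acid sensing upstream of mTORC1, 8 were higher, such as the arginine sensor Castor2 (1.49, SE 0.32) and Lamtor4 (0.93, SE 0.16), and 2 lower, such as Rraga (-1.09, SE 0.21). Amino acid carriers of other families had 4 higher and 7 lower of 20 tested. Slc36a2, a proton-coupled glycine and proline carrier, had means of 9.44 and 3.55 TPM in PDPN+ neratinib and vehicle libraries, against 0.0411 and 0.0545 TPM in EpCAM+ neratinib and vehicle libraries. Slc6a19, a carrier of neutral amino acids in gut and kidney, had 0 reads in all PDPN+ libraries, and means of 0.263 and 0.178 TPM in EpCAM+ neratinib and vehicle libraries.

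No gene of the 8 lists passed in either neratinib comparison in edgeR. In PDPN+ cells the smallest unadjusted p of any list was that of Asns, at a mean of 15.7 TPM in neratinib and 49.5 TPM in vehicle libraries (log2 difference -1.83, SE 0.79, unadjusted p = 0.0425, adjusted p = 1.000), while Atf4 (-0.18, SE 0.36) and Ddit3 (-0.04, SE 0.36) were close to 0. In EpCAM+ cells Gpt, which makes alanine from pyruvate and glutamate, had 16.6 TPM in neratinib and 9.77 TPM in vehicle libraries (log2 difference 0.68, SE 0.21, unadjusted p = 0.00793, adjusted p = 0.999). Ddit3 (-0.53, SE 0.24, unadjusted p = 0.0470), Shmt1 (0.30, SE 0.11, unadjusted p = 0.0244) and the peptide carrier Slc15a3 (2.34, SE 1.05, unadjusted p = 0.0469) had the smallest p of their lists, and Asns (-0.11, SE 0.16) and Atf4 (-0.15, SE 0.11) were close to 0.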

How the data were processed

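Transcript tables of 19 RNA-seq libraries were used, made from sorted cells by a kit for little RNA, with more PCR cycles for smaller amounts, per the labels' protocols. Expected counts (reads estimated per transcript), TPM and effective transcript lengths were deposited by the authors, who used Salmon 1.9.0 and GRCm39 per the submitters' processing notes. Transcripts were named through GENCODE M21 (GRCm38, names only): 137063 of 147828 matched, and unmatched ones held 4.07 to 8.96% of PDPN+ and 1.77 to 2.26% of EpCAM+ reads. Reads and TPM were summed per gene, and sums of reads rounded to whole numbers. Genes passing edgeR's filterByExpr were scaled by TMM and tested by edgeR's quasi-likelihood test (edgeR 4.0.16, R 4.3.3), two-sided, with Benjamini-Hochberg adjustment over all genes tested: neratinib against vehicle within each population, and the population contrasts and interaction in 1 fit of 4 groups. Alternatives used DESeq2 1.42.0, limma 3.58.1 on log2(TPM + 1) and log2(TPM + 0.1), voom weights, length offsets, protein-coding transcripts alone, left-out libraries and mouse as a block. The scripts were checked on simulated data. The members and lists were chosen with earlier results of these data known.

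The members named with values were, for the populations, up to 8 that passed in each direction by their higher mean TPM and at least 1 for each role, for each neratinib comparison the 3 with the smallest p, and throughout Slc3a2, Slc7a5, Slc7a11, Slc1a5, Slc7a1 and Slc38a2. Of each related list up to 3 genes by the smallest p, and Atf4, Asns and Ddit3, were named. Members outside this rule, such as Slc7a10, Slc7a14, Slc7a15, Slc1a1, Slc1a7 and Slc38a11, were chosen after their values were seen. The motif searches, the transcript classes and the exons of Slc7a2 were chosen after values were seen. Libraries carry replicate numbers read as mice, so that the block pairs cells of the same animal for 8 mice (16 libraries), which is an inference from the labels. Deviations from the group means of the pairs correlated between -0.107 and 0.0306, so the data gave no sign of shared deviations. Nothing states that PCR duplicates were removed, and intervals and floors cover counting error only.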

Additional observations from a re-analysis of the deposited data

Results flagged for a closer look

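In 75 tests of a single library against the others of its group of 4 to 6 (Dixon's gap rule), 12 values stood apart. For 3 of these all other libraries of the group had 0 reads, which fixes the gap, and 9 of the other 72 tests remain. All flagged values were the highest of their group. The 1 in 20 that the rule gives by chance holds for normally distributed values, and TPM is bounded at 0. No excess over chance can therefore be read from these counts. Among PDPN+ neratinib libraries PN53180 stood apart for Slc7a11, at 1.84 TPM with 0.585 TPM in the next library, and for Slc1a3, at 8.96 TPM with 1.43 TPM in the next. PN53194 stood apart for Slc3a1, at 0.543 TPM (34 reads) with 0 in the others. Among PDPN+ vehicle libraries PV53179 stood apart for Slc3a1, at 0.111 TPM (9 reads) with 0 in the others, and for its light-chain partner Slc7a9, at 1.57 TPM with 0.145 TPM in the next. Among EpCAM+ neratinib libraries EN53178 stood apart for Slc1a5, at 72.8 TPM with 21.6 TPM in the next. EN53194 did so for Slc43a3, at 1.05 TPM with 0.388 TPM in the next, and for Slc1a3, at 0.0210 TPM (1 read) with 0 in the others. Among EpCAM+ vehicle libraries EV53179 stood apart for Slc7a8, at 16.8 TPM with 4.12 TPM in the next, and for Slc38a1, at 6.61 TPM with 4.60 TPM in the next. EV53185 did so for Slc38a6, at 14.9 TPM with 11.5 TPM in the next, and EV53188 for Slc43a1, at 0.118 TPM with 0.0407 TPM in the next. The high value of EN53178 for Slc1a5 was shared by the vehicle libraries EV53175 and EV53176.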

How the results depend on the processing

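Under all settings run, 15 of the 23 members that differed between PDPN+ and EpCAM+ cells passed wherever they were tested. Of these, Slc1a3, Slc38a11, Slc7a10 and Slc7a14 were not tested in every setting. None of the 23 changed direction in this comparison over both treatments. Leaving out 1 library gave 11 to 12 members higher and 11 to 15 lower. With mouse as a replicate block, 10 members were higher and 9 lower and 6792 genes passed. In vehicle mice the paired fit gave 6 members higher, 3 lower and 2532 genes, and in neratinib mice 7 higher and 3307 genes. In vehicle mice limma on log2(TPM + 1) and on log2(TPM + 0.1) gave 6 higher, and in neratinib mice limma on log2(TPM + 1) gave 12 lower.

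Neratinib calls in PDPN+ cells were 13 genes in DESeq2, 4 in limma on log2(TPM + 0.1) and 111 in a fit of all 19 libraries, and in EpCAM+ cells 8 in DESeq2, with 0 members in each. The interaction gave 1 member and 633 genes in DESeq2, 2 and 572 without PV53175 and PV53188, 0 to 1 and 9 to 131 without 1 library, 5 genes on log2(TPM + 1), 4 in both voom fits, 7 from coding transcripts, 1 without the 3 EpCAM+ libraries and 0 with the block.

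Of the differences between populations over both treatments and for neratinib, those that changed sign had not passed in the report, and their cause was not tested. Within vehicle mice Slc1a7 had passed and changed sign. It was -3.29 without PV53188, -3.30 without PV53175 and PV53188, and -0.71 in voom with sample weights. Between populations Slc7a5 was -0.019 in DESeq2 and with its size factors, -0.085 without a filter, -0.61 and -1.43 on log2(TPM + 1) and log2(TPM + 0.1), -0.82 and -1.41 in the voom fits with sample and population weights, -0.039 with length offsets, -0.11 without the 3 EpCAM+ libraries, -1.26 with the block and -0.75 to 0.16 without 1 library. Slc1a2 was -0.40 and -1.37 on the TPM scales, -0.12 in the voom fit with population weights, -0.37 with the block and -0.028 to 1.36 without 1 library, Slc43a2 was 0.10 without the 2 PDPN+ vehicle libraries, and Slc38a10 was 0.090 in the voom fit with population weights. For neratinib in PDPN+ cells Slc38a2 was -0.0091 and -0.0086 on the TPM scales, -0.042 with voom, -0.030 without the 2 vehicle libraries and -0.064 to 0.13 without 1 library. Slc7a1 was 0.21 and 0.73 on the TPM scales, 0.061 with length offsets and -0.73 to 0.11 without 1 library, and Slc7a11 was -0.28 to 2.28 without 1 library. In EpCAM+ cells Slc7a11 was 0.020 and 0.038 on the TPM scales and -0.24 to 0.12 without 1 library, and Slc7a5 was 0.0027 on log2(TPM + 0.1) and -0.18 to 0.088 without 1 library.

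With 4 PDPN+ libraries a group, a median SE of 1.06 limits what the neratinib comparison can show.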
